A study of Rattus norvegicus with 4 samples.

Results

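Ion channel genes of the potassium, sodium, calcium, chloride and TRP families were measured in NR8383 cells, a rat alveolar macrophage line, after 4 h with carbon nanotubes. The genes were taken by symbol, under a rule proposed with earlier results of these data known. It takes rat RefSeq symbols that begin with Kcn, with Scn and a digit, with Cacna1, with Clcn, or with Trpa, Trpc, Trpm or Trpv and a digit. Of 154 such symbols in the RefSeq table, 142 had a named probe with a value on all 4 arrays, out of 16579 measured genes in all. The 12 others were not analysed here, Cacna1d, Kcnd2l1, Kcnk6-ps1, Kcnk7, Kcnk16-ps1, Kcnu1, Scn7a, Trpc2, Trpc5os and Trpm6 among them. The rule also takes in subunits that form no pore, and Trpc4ap, which encodes a protein that associates with a TRPC channel.

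The samples were 4 biological replicates of 1 group, per the series' design text, and each was read on its own 1-colour array. The cells, established by lavage of a normal rat's lung and kept for 20 passages, had been seeded 48 h before and were exposed to the carboxyl-functionalized nanotubes named NRCWE042 at 6.8 cm2 of nanotube surface per cm2. Unexposed cultures were not analysed here, so no value here measures what the nanotubes did, and no comparison between conditions was made or tested. Because whole cultures were read, fewer cells expressing a gene and less of its RNA per cell cannot be told apart.

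Ion channels let ions cross membranes down their gradients, and their opening follows voltage, calcium, lipids, temperature, mechanical force or other signals. In macrophages, which are not excitable cells, potassium channels set the membrane potential and give the potassium efflux that precedes NLRP3 inflammasome activation. Chloride and cation channels and chloride/proton exchangers of endosomes and lysosomes take part in acidifying the compartments that receive engulfed particles. Voltage-gated sodium channels and many voltage-gated potassium and calcium channels are best known from nerve and muscle.

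A gene was called detected when the scanner software marked at least 1 of its probes well above background on all 4 arrays. By this measure 20 of the 142 channel genes (14.1%) were detected, against 7363 of all 16579 measured genes (44.4%) and 44.7% of the measured genes other than the channel genes. On no array were 113 channel genes (79.6%) well above background, against 46.1% of all measured genes, and 9 channel genes were detected on 1 to 3 arrays. Solute carrier genes, which also encode membrane transport proteins, had 139 of 337 members (41.2%) detected. A probe that is not well above background does not show that a transcript was absent. Macrophage markers were detected in 10 of 13 cases, Cd68, Csf1r, Spi1, Pparg and Lyz2 among them, while Adgre1, Marco and Cd163 were detected on no array. Of 38 measured markers of other cell types, 5 were detected: Dcn of 5 fibroblast, Cd3d of 5 T cell, Actc1 of 5 muscle and heart, and Pecam1 and Cdh5 of 4 endothelial markers. The count was 0 for 8 lung epithelial, 5 neutrophil and 6 neuronal markers. Syt1 of the neuronal, Csf3r of the neutrophil and Cd247 of the T cell list were well above background on 1 array each.

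The share of all measured genes that was detected (44.4%) stands beside the families' counts. Chloride channel and exchanger genes had 5 of 9 (55.6%, near that share, and 2 of 9 or 22.2% with every probe of a gene required, beside 38.6% of all measured genes), TRP symbols 4 of 20, calcium channel pore genes 2 of 9, auxiliary potassium channel genes 3 of 17 and potassium pore genes 6 of 74. Sodium channel genes had 0 of 13, with 9 pore and 4 auxiliary genes. Within the potassium pore genes, 4 of 7 calcium- or sodium-activated channel genes and 2 of 13 tandem-pore-domain (Kcnk) genes were detected, whereas none of the 27 voltage-gated Kv genes (Kcna to Kcnd, Kcnf, Kcng, Kcns and Kcnv), 8 Kcnh, 4 Kcnq and 15 inward rectifier (Kcnj) genes was detected on all 4 arrays. These counts describe the families, which were not tested against each other.

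**Figure D1:**
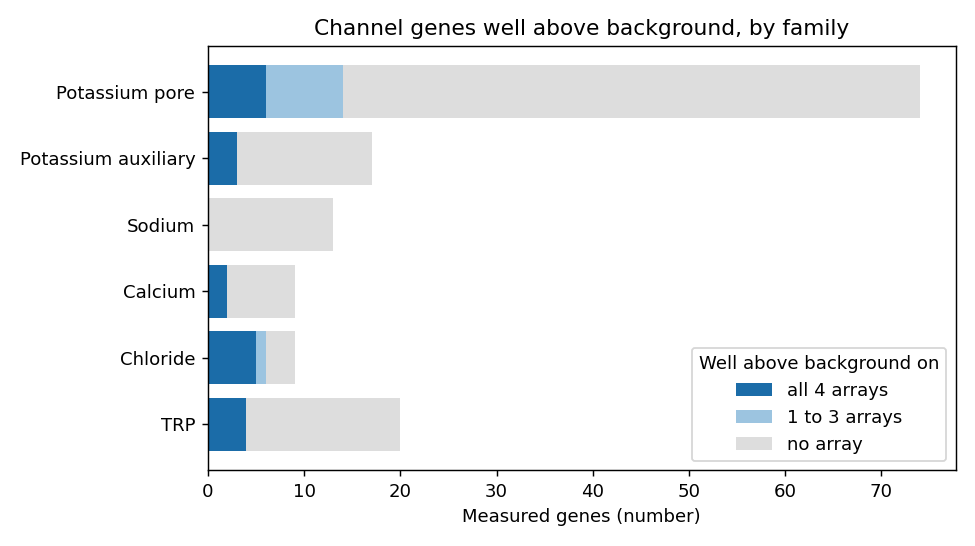
Number of measured channel genes (horizontal axis) in each family, split by the arrays on which they were well above background. Of 74 potassium pore genes 6 were detected on all 4 arrays, of 9 chloride genes 5, and of 13 sodium channel genes 0.

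Levels below are log2 of the processed signal minus the 75th percentile of the same array, so a level of 0 is the brightness that 75% of the sample probes do not exceed. Probes differ in how well they bind, so a level follows 1 gene over the 4 arrays and gives no order between genes. The 75th percentile was 128, 131, 98.5 and 49.0 signal units on replicates 1 to 4, and 38.8%, 36.8%, 35.3% and 31.1% of the sample probes were well above background. Replicate 4 was the dimmest array by both measures, and channel genes well above background numbered 27, 25, 26 and 20 on replicates 1 to 4. Against replicate 1, the 75th percentile stood at 0.03, -0.38 and -1.38 log2 units on replicates 2 to 4. The signal of the spike-in controls stood at -0.09, 0.20 and -0.10 there, so it was not low on replicate 4 to the same degree. The array of replicate 3 has a central area of low signal that holds 1246 sample probes. It contained the probe used for 3 channel genes, Kcnk1 among them, none of them detected, and for 0 of the 20 detected ones. All 4 arrays shared 1 slide and 1 scan.

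The calcium-activated potassium channel genes were the most fully detected class of potassium pore genes. Kcnn4, which encodes the intermediate-conductance calcium-activated channel of leukocytes, read 3.27, 3.29, 3.93 and 4.33 on replicates 1 to 4 (mean 3.71 ± 0.52; means here and below are ± SD over n = 4 arrays). Its level was alike on replicates 1 and 2 and higher on replicates 3 and 4. Kcnn3, a small-conductance channel of the same family, read 2.64, 2.50, 3.21 and 3.60 (2.99 ± 0.51), and the small-conductance channel gene Kcnn1 read -0.59, -0.70, -0.39 and -0.04 (-0.43 ± 0.29). Both were lowest on replicate 2 and highest on replicate 4. Kcnma1, the gene for the large-conductance channel that responds to voltage and calcium, read 1.28, 0.87, 1.86 and 0.99 (1.25 ± 0.44), highest on replicate 3. Kcnn2 and the sodium-activated channel genes Kcnt1 and Kcnt2 were well above background on no array.

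Tandem-pore-domain channels carry potassium leak currents. Kcnk6, which in mouse macrophages has been tied to the potassium efflux upstream of NLRP3, read 2.66, 2.63, 3.18 and 3.38 (2.96 ± 0.37). Kcnk13, whose product is known from mouse microglia, read 2.10, 2.16, 2.79 and 2.75 (2.45 ± 0.37). Both genes were lower on replicates 1 and 2 than on replicates 3 and 4. Kcnk12, a close relative of Kcnk13, was well above background on 3 arrays, at -0.07, -1.93, -1.10 and -1.21 on replicates 1 to 4, and missed on replicate 4. Kcnk5 and Kcnk9 were well above background on 1 array each, with values that spread from -4.25 to -1.28 for Kcnk5 and from -4.75 to -1.36 for Kcnk9. Kcnk1, Kcnk2, Kcnk3, Kcnk4, Kcnk10, Kcnk15, Kcnk16 and Kcnk18 were well above background on no array.

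Voltage-gated potassium channel genes gave few signals. Kcna3, the Kv channel gene best known from lymphocytes and also described in macrophages, was well above background on replicates 1 and 3 and read -2.08, -2.46, -1.66 and -1.34 on replicates 1 to 4. Kcna6 was well above background on replicate 1 alone, where it read -1.83. Kcnh3 and Kcnq1 were detected on 3 arrays and missed on replicate 4, with means of -1.52 ± 0.19 and -1.76 ± 0.39. The other 25 Kv genes were well above background on no array, among them Kcna1, Kcna2, Kcna4, Kcna5, Kcna7 and Kcna10, Kcnb2, Kcnc1 to Kcnc4, Kcnd1 to Kcnd3, Kcnf1, Kcng1 to Kcng4, Kcns1 to Kcns3, and Kcnv1 and Kcnv2. The same was true of Kcnh1, Kcnh2 and Kcnh4 to Kcnh8, and of Kcnq3 and Kcnq5. Of the inward rectifiers, Kcnj11, the pore subunit of ATP-sensitive potassium channels, was well above background on replicate 1 alone, at -1.22 there and -3.83, -2.97 and -2.12 on the other arrays. Kcnj2, which encodes a strong inward rectifier recorded in macrophages, was well above background on no array, and neither were Kcnj1, Kcnj3, Kcnj4, Kcnj5, Kcnj6, Kcnj8, Kcnj9, Kcnj10, Kcnj12, Kcnj13, Kcnj14, Kcnj15 and Kcnj16.

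Of 17 auxiliary genes of potassium channels 3 (17.6%) were detected on all 4 arrays, beside 44.4% of all measured genes. None of the Kv, Kcnh and Kcnq pore genes was. Kcnab1, a Kv beta subunit with an aldo-keto reductase fold, read 3.09, 3.18, 3.10 and 2.98 (3.09 ± 0.08), with the smallest SD of the 20 detected channel genes. Its relative Kcnab2 read -1.19, -1.60, -0.58 and 0.01 (-0.84 ± 0.70), lowest on replicate 2 and highest on replicate 4. Kcnip2, a calcium-binding partner of Kv channels, read -0.67, -0.53, -0.31 and -0.04 (-0.39 ± 0.28), each value the mean of a probe printed on 10 spots. Kcnab3, Kcne1 to Kcne5, Kcnip1, Kcnip3, Kcnip4, Kcnmb1 to Kcnmb4 and Kcnrg were well above background on no array. Kcnmb genes encode the beta subunits of the channel whose pore comes from Kcnma1.

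Chloride genes encode intracellular exchangers and plasma membrane channels, and 5 of 9 (55.6%) were detected, near the 44.4% of all measured genes. Clcn2, Clcn4 and Clcn6 were each detected by 1 of 2 probes. With every probe required 2 of 9 (22.2%) were detected, beside 38.6% of all measured genes. Clcn7, the lysosomal chloride/proton exchanger gene, read 0.15, -0.08, 0.40 and 0.49 (0.24 ± 0.26), and Clcn6, which encodes a late endosomal exchanger, read 0.59, 0.53, 0.98 and 1.13 (0.81 ± 0.29). Clcn3, an exchanger gene of endosomes, read -0.84, -0.52, -0.70 and -0.64 (-0.67 ± 0.13) and differed little between arrays. Clcn4 read 0.81, 0.89, 0.69 and -0.14 (0.56 ± 0.47). It was lowest on replicate 4, where most of the detected channel genes were highest. Clcn5, the remaining exchanger gene, was detected on 3 arrays at -1.15 ± 0.19 and missed on replicate 4. Of the genes for plasma membrane channels, Clcn2 was detected and read -1.49, -2.12, -0.31 and 0.77 (-0.79 ± 1.28), the widest spread of the 20, while Clcn1, the gene of the skeletal muscle channel, was well above background on no array. Ostm1, the gene for the partner protein of the Clcn7 exchanger, was detected at 2.36 ± 0.09.

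TRP channels admit cations, in many cases calcium. Trpv2, a cation channel gene known from macrophages and, in mouse, from phagocytosis, read 7.04, 7.05, 7.63 and 7.88 (7.40 ± 0.42). Trpm7, which encodes a magnesium- and calcium-permeable channel fused to a kinase, read 6.28, 6.17, 6.32 and 6.86 (6.41 ± 0.31). On every array both lay far over the 75th percentile by the probe used. The other probe of Trpm7 had a mean of -3.97 and was well above background on no array. Trpm8, the cold and menthol receptor gene of sensory nerves, read -0.60, -0.91, -0.33 and 0.04 (-0.45 ± 0.41). Trpc4ap read 5.08, 5.04, 5.65 and 5.96 (5.44 ± 0.45). The other TRP genes were well above background on no array: Trpa1, Trpc1, Trpc4 to Trpc7, Trpm1 to Trpm5, Trpv1 and Trpv3 to Trpv6. Of these, Trpm2 and Trpm4 have been described in immune cells.

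Calcium and sodium channel pore genes were nearly all undetected. Cacna1i, a low-voltage-activated (T-type) calcium channel gene, read 0.61, 0.44, 1.13 and 1.53 (0.93 ± 0.50). Cacna1b, which encodes the N-type channel of nerve endings, read -1.71, -1.58, -1.66 and -0.93 (-1.47 ± 0.36), with replicate 4 apart from the others. Cacna1a, Cacna1c, Cacna1e, Cacna1f, Cacna1g, Cacna1h and Cacna1s were well above background on no array. The same holds for the sodium channel pore genes Scn1a, Scn2a, Scn3a, Scn4a, Scn8a, Scn9a, Scn10a and Scn11a and the auxiliary genes Scn2b, Scn3b and Scn4b. Scn8a has been described in human macrophages.

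**Figure D2:**
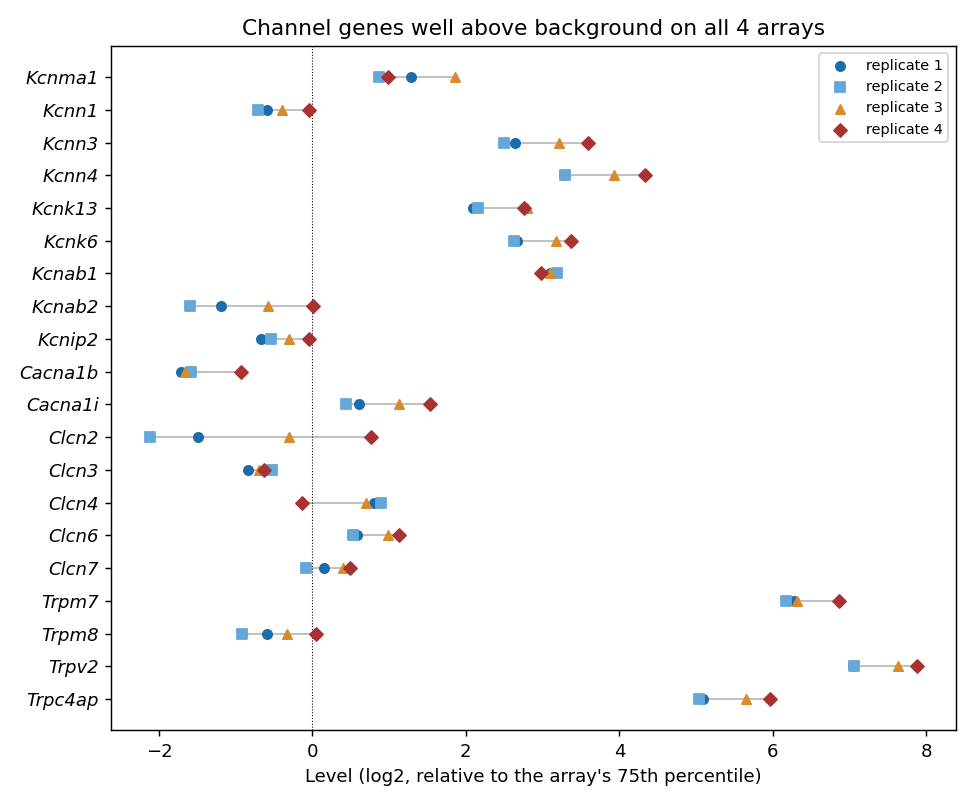
Levels of the 20 channel genes that were well above background on all 4 arrays (log2, with the 75th percentile of each array at 0); each point is 1 array and each grey line spans the 4 arrays. Clcn2 has the widest span and Kcnab1 the smallest SD, and Clcn4 and Kcnab1 have their lowest level on replicate 4.

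The 113 channel genes that were undetected on every array had medians close to those of the negative control spots. Some lay above the brightest control of an array, such as Scn4a on replicate 1, at -2.41 beside -2.76. Mean levels of the 113 ran from -4.30 to -2.24 with a median of -4.04. By array, their medians were -4.54, -4.44, -4.17 and -3.37 on replicates 1 to 4, beside medians of -4.63, -4.53, -4.24 and -3.42 for the 308 negative control spots. The software marked 3 of these control spots well above background on replicate 3, where the brightest read 0.21, and 0 on each other array. The lowest level that counted as well above background was -2.56, -2.41, -2.09 and -1.24 on these arrays. The limit of detection thus lay 1.32 log2 units higher on replicate 4 than on replicate 1, and without replicate 4 the number of detected channel genes was 24, with Clcn5, Kcnh3, Kcnk12 and Kcnq1 added.

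Probes of the same channel gene did not all pass the mark of detection. Of the 20 detected genes 11 had several probes, and in 3 of these (Cacna1i, Kcnk6 and Kcnn4) every probe was detected, a share of 27.3%, against 53.9% of the 2086 detected genes with several probes. In the other 8 (Cacna1b, Clcn2, Clcn4, Clcn6, Kcnip2, Kcnk13, Kcnma1 and Trpm7) 1 probe was well above background on all 4 arrays and the other on none. Their detection and levels thus rest on 1 probe that the other did not bear out. The gap between brightest and dimmest probe was 10.4 log2 units for Trpm7, 5.50 for Kcnk13, 5.03 for Kcnma1 and 4.04 for Clcn6. Its median was 3.43 over the 11 genes, beside 2.83 over the 2086. Which probe follows the transcript better was not tested. The probes were designed to different transcript accessions for Cacna1b, Clcn4 and Kcnn4, and to the same accession for the other 8 of the 11 genes. With every probe of a gene required, 12 channel genes (8.45%) were detected, against 38.6% of all measured genes: the 3 above and the 9 genes with 1 probe.

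The spread of the detected channel genes between arrays, set beside that of all detected genes, depended on the scaling. As a group they had lower levels, with a median mean level of 0.87 beside 2.36 for all detected genes. A mean level below 0 was found in 35% of them, beside 14.6%. Spread was not compared at matched levels. The median SD of the channel genes was 0.39, beside 0.25 for all 7363 detected genes. With scaling to the array median it was 0.32 beside 0.36, with spike-in scaling 0.37 beside 0.58 and with normexp background correction 0.18 beside 0.23. In these 3 settings the channel genes had the lower value. At most 38.8% of an array's sample probes were well above background, so the array median falls among probes that were not. Normexp was run with an offset of 50 signal units, beside 75th percentiles of 128, 131, 98.5 and 49.0 on replicates 1 to 4. The part of this offset in the lower spread was not tested. With quantile normalization the median SD was 0.34 beside 0.24, so there the channel genes had the higher value, as in the main scaling. With scaling to the 75th percentile, 4 of 20 (20%) had an SD above 0.5, beside 11.6%. These were Clcn2, Kcnab2, Kcnn4 and Kcnn3, followed by Cacna1i at 0.50. Clcn2, Kcnab2 and Kcnn4, or 15% of the 20, had an array that differed by over 1 log2 unit from the other 3 (their median), as did 8.88% of all detected genes, while with spike-in scaling the count was 5 of 20 beside 57.1%. Clcn2 stood 2.25 log2 units above the others on replicate 4 and differed from them by -1.81 on replicate 2. Kcnab2 stood 1.20 above on replicate 4 and Kcnn4 1.04 above. Under normexp, 1 of the 20 had an SD above 0.5, beside 6.99% of all detected genes.

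Detected channel genes had lower medians on replicates 1 and 2 than on replicates 3 and 4. The median difference from a gene's own mean was -0.26, -0.33, 0.19 and 0.44 log2 units on replicates 1 to 4 for the 20 channel genes, and -0.07, -0.07, 0.06 and 0.10 for all detected genes. On replicate 4, 15 of the 20 (75%) had their highest level, beside 46.4% of all detected genes. The other 5 were Kcnab1 and Clcn4, highest on replicate 2 and lowest on replicate 4, Clcn3, highest on replicate 2, and Kcnma1 and Kcnk13, highest on replicate 3. Split at a mean level of 0, the 7 lower channel genes stood at 0.49 on replicate 4 and all 1078 detected genes of that range at 0.15. The 13 higher channel genes stood at 0.41, and all 6285 detected genes of that range at 0.09. With scaling to the spike-in controls the differences became 0.18, 0.23, 0.05 and -0.41, and those of all detected genes 0.37, 0.49, -0.09 and -0.75, so that on replicates 1, 2 and 4 the direction turned for both. With scaling to the array median the difference on replicate 4 was -0.012 for the channel genes and -0.35 for all detected genes. Array-median and spike-in scaling change every gene of an array by the same amount. The gap between the channel genes and all detected genes was therefore the same as in the main scaling. On replicate 4 the channel genes stood at 0.34 beside 0.03 with quantile normalization, and at 0.13 beside -0.13 with normexp. Each array is 1 replicate, and the strength of sample signal differed between the same arrays, so the part of replicate and array in these differences cannot be told apart. On replicate 4 the 75th percentile stood at -1.38 log2 units against replicate 1, and the spike-in signal at -0.10.

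**Figure D3:**
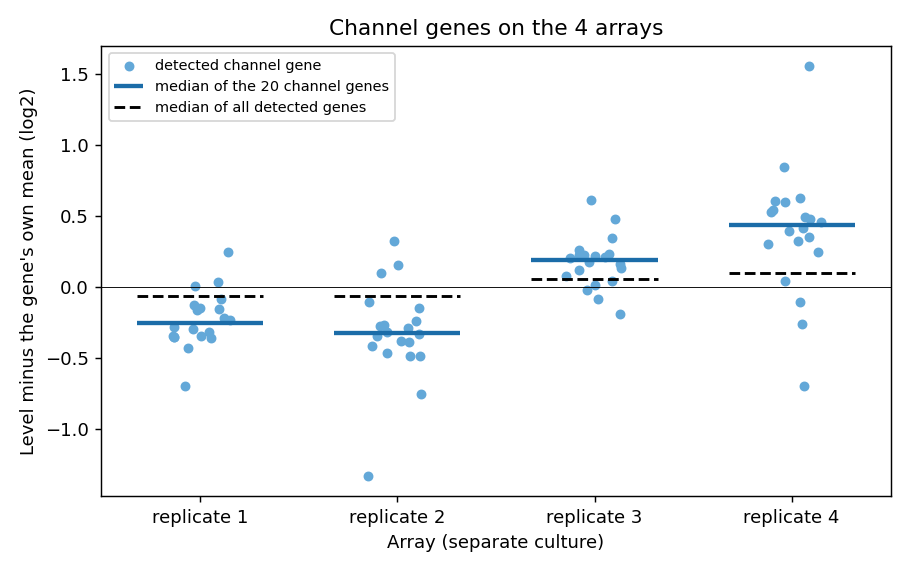
Difference of each of the 20 detected channel genes from its own mean (log2) on each array, with the median of these genes and the median of all detected genes. The channel genes have medians of -0.26 and -0.33 on replicates 1 and 2 and of 0.19 and 0.44 on replicates 3 and 4.

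Other genes of ion transport give the context. A fixed list of 105 further channel, exchanger and pump genes had 27 of its 93 measured members (29%) detected, beside 44.4% of all measured genes. With every probe of a gene required the count was 25 (26.9%), beside 38.6%. The counts of its smaller groups, which were not tested, are to be read against that share. All 5 genes of store-operated calcium entry were detected: Orai1, Orai2 (by 1 of 2 probes), Orai3, Stim1 and Stim2. The pore gene Orai1 read 2.62 ± 0.44 and the reticulum calcium sensor gene Stim1 3.18 ± 0.39. Of 5 measured endolysosomal cation channel genes 4 were detected: Mcoln1 at 3.54 ± 0.49, Mcoln2, Mcoln3 and the lysosomal potassium channel gene Tmem175 at 0.05 ± 0.36. Tpcn1 was detected on 3 arrays. Piezo1, a mechanosensitive channel gene, was detected at 4.64 ± 0.56, and Tmem63a was detected as well. Of the volume-regulated anion channel genes Lrrc8a (-0.87 ± 0.75), Lrrc8c and Lrrc8d were detected, and of other chloride genes Ano10, Clic1 (6.56 ± 0.05), Clic4, Pacc1 and Ostm1.

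The ATP-gated channel gene P2rx4 was detected at 0.48 ± 0.06 and 6 other P2rx genes, P2rx7 included, were not. Itpr1, the calcium release channel gene of the endoplasmic reticulum, was detected at -0.01 ± 0.34. Of 16 auxiliary genes of calcium channels only Cacnb3 was detected on all 4 arrays, at 5.32 ± 0.65. Of 10 pump genes 5 were detected, near the share of all measured genes, Atp1b3, Atp2a2 (by 1 of 3 probes) and Atp2b1 among them. Among 4 pacemaker (Hcn), 4 pannexin and connexin (Panx1 included), 5 proton and acid-sensing, 3 epithelial sodium channel, 1 polycystin and 6 potassium channel partner genes measured, 0 were detected on all 4 arrays.

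Promoter sequence, which played no part in choosing the genes, was read from RefSeq for the GRCr8 assembly as the 250 bases before and 50 after each gene's start, and 102 of the 142 channel genes had an entry. The 16 detected channel genes with a promoter held a median of 23 CpG dinucleotides (range 5 to 38), and the 82 undetected on every array a median of 10.5 (range 1 to 60). Over all measured genes the medians were 21 for detected and 6 for undetected genes. The channel genes thus differed by detection in the direction seen over all genes, with wide overlap. Among detected ones Trpm7 held 38, Kcnma1 38, Clcn2 37 and Kcnk13 33, while Trpv2 held 8, Clcn4 5 and Trpm8 5.

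Of 3 motifs searched on both strands, the CLEAR core TCACGTGA, known as the site of the lysosomal gene regulator TFEB, was found in the promoters of Trpm7 and Clcn6, 2 of 16 detected and 0 of 82 undetected channel genes, and in 0.867% of all promoters of the table. Among all measured genes with a promoter it was found in 1.89% of detected and 0.588% of undetected genes. The core GAGGAAGT of the macrophage factor PU.1 was found in 0 of the 16 detected and 4 of the 82 undetected channel genes (Kcnj2, Kcnj5, Kcnj14 and Scn2a), and in 2.44% of all promoters, with 2.68% of all detected and 1.96% of all undetected genes. The sequence TATAAA was found in 2 of 16 (Clcn7 and Trpm8) and 4 of 82, and in 14.3% of all, with 6.98% of all detected and 17.6% of all undetected genes. A match describes these letters only. The 250 bases before the start of both genes with the CLEAR core, in capitals, are shown first. The same stretch follows for Kcnk13, with 33 CpG in its 300-base window, and Trpv2, with 8, as detected genes rich and poor in CpG, whose CpG are in capitals.
Trpm7 promoter, GRCr8 chr3:134588114-134588363, minus strand: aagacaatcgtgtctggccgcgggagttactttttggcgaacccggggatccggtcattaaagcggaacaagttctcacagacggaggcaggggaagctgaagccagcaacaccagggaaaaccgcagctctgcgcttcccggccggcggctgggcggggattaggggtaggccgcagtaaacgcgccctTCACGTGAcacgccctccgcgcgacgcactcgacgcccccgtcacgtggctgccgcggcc
Clcn6 promoter, GRCr8 chr5:163748199-163748448, minus strand: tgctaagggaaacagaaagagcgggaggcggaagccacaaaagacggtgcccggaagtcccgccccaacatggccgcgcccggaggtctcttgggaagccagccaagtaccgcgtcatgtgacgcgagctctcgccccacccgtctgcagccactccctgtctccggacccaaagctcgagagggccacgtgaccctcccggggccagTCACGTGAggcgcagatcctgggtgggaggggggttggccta
Kcnk13 promoter, GRCr8 chr6:124971559-124971808, plus strand: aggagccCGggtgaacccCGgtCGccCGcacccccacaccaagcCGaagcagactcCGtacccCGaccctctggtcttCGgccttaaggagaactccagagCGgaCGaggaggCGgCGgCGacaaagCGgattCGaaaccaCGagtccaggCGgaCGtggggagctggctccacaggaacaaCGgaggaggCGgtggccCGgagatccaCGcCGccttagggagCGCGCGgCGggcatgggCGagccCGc
Trpv2 promoter, GRCr8 chr10:47771973-47772222, plus strand: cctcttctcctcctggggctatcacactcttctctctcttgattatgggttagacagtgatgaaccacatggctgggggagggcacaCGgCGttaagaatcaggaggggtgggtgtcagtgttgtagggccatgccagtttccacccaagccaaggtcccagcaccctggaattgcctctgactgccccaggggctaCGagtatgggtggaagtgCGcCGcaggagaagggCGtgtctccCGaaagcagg

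**Figure D4:**
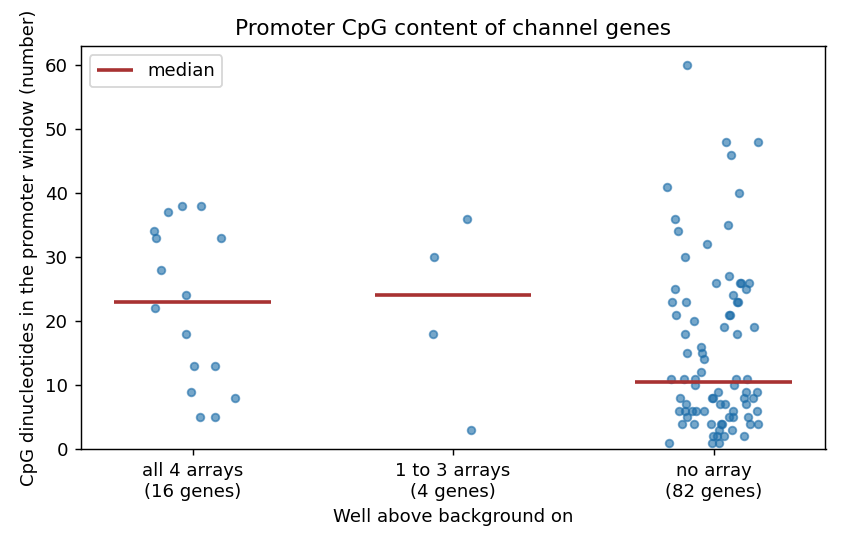
Number of CpG dinucleotides in the 300-base promoter window of each channel gene with a RefSeq promoter entry, grouped by the arrays on which the gene was well above background; red lines are medians. Detected genes have a median of 23 and genes undetected on every array 10.5, and the groups overlap.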

How the data were processed

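Per the file headers, the authors' deposited values are linear intensities of single spots, 1 colour per array, written by Agilent Feature Extraction, version 11.0.1.1, which the submitters' processing notes also name. The deposited processed signal is background-subtracted and detrended within each array, and no step that normalizes between arrays is given in the sources used here. The other deposited columns used are raw spot and local background medians, for the alternative background correction, and flags of 0 or 1 that the software set for each spot.

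From the deposited processed signal log2 was taken without the non-uniform and population-outlier spots. Spots of the same probe were averaged, and the 75th percentile of an array's sample probes was then subtracted from its values. No filter on dim probes was applied beyond the call of detection. Of 45598 sample probes, 21109 had an accession found in a RefSeq table of the GRCr8 assembly and took its symbol, and 24489 are unnamed here. The file headers name rn4, so coordinates are given only with RefSeq promoters. A gene counted as measured when a named probe kept a value on every array after outlier spots were left out, and it took its brightest such probe. A probe with several spots was well above background when over 50% of them were.

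With 1 group there is no test of a condition, and no p-value is given; arrays give no read depth, and their number limits the precision. The series' design text calls the samples biological replicates. No sample spot was saturated. Promoter motifs were chosen after the values were seen. The genes and lists were chosen with earlier results of these data known. Named were all detected genes with their values, partly detected genes with their number of arrays, undetected genes by symbol, with some genes not reported here, and the detected genes of a fixed list of other channels, with levels only for those among 16 of its genes that the rule lists. Of these 16, Hvcn1 was not measured, and Panx1, P2rx7 and Tpcn1, not detected on all arrays, are named without a level. Proteins were to be shown, but no protein table was used here. The low area on replicate 3 was found as spots where a moving median of the difference from the other arrays (6 spot rows and 4 spot columns to each side, at least 20 bright spots) was below -1 log2 unit. Steps were tested on simulated data. The analysis used Python 3.11.15, numpy 2.4.6 and pandas 2.3.3, and R 4.3.3 with limma 3.58.1 for normexp (offset 50) and quantile normalization.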

Additional observations from a re-analysis of the deposited data

Results flagged for a closer look

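Cacna1b was the single gene among the 20 detected channel genes whose array furthest from the rest stood apart by Dixon's ratio (0.837, the gap between the outlying array and its nearest neighbour divided by the range). It read -1.71, -1.58, -1.66 and -0.93 on replicates 1 to 4, so replicate 4, the dimmest array, was the one apart. Chance marks about 1 in 20 groups of this size. The part of array brightness in this value was not tested. The gene's other probe was well above background on no array.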

How the results depend on the processing

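Detection of channel genes depended on the mark used and on the probes. The count of 20 became 12 with every probe of a gene required and 40 (28.2%, against 55.4% of all measured genes) when a probe had only to be marked positive and significant, and was 24 at 3 of 4 arrays and 29 at 1 array. Under that mark the potassium pore count was 20 and the sodium count 2, at 1 array the potassium pore count was 14 and that of markers of other cell types 8, and with every probe required the calcium count was 1 and the chloride count 2. Leaving out 1 replicate gave 20 to 24 channel genes, 24 without replicate 4, and 6 to 9 potassium pore genes. In each of these settings the share over all channel genes was below that of all measured genes.

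Spread and shift depended on the scaling, and spread was not compared at matched levels. The number of the 20 with an SD above 0.5 was 4 (beside 11.6% of all detected genes), 3 with array-median scaling (21.0%), 5 with spike-in scaling (59.1%), 2 with quantile normalization (9.06%), 1 with normexp (6.99%), 101 of all 142 measured channel genes (45.4% of all measured genes), and 2 to 7 with 1 replicate left out (7 without replicate 1 or 3, and 2 without replicate 4). The number deviating on an array was 3 (8.88%), 2 with array-median scaling (12.8%), 5 with spike-in scaling (57.1%), 1 with normexp (6.11%), 89 of all 142 (39.5%), and 1 to 5 with 1 replicate left out (1 without replicate 2 or 4, and 5 without replicate 3). With quantile normalization the number deviating was 2 (6.65%). Both shares were thus below that of all detected genes under array-median, spike-in and normexp settings. They were above it in the main scaling, with quantile normalization, with the mean over probes and with each replicate left out. The median SD over detected channel genes ran from 0.30 to 0.42 with 1 replicate left out and was 0.18 with normexp. It was below that of all detected genes under array-median, spike-in and normexp settings. In the main scaling, with quantile normalization (0.34 beside 0.24), with the mean over probes (0.39 beside 0.26) and with each replicate left out it was above. With scaling to the array median the shift on replicate 4 was -0.012, where all detected genes shifted by -0.35. With spike-in scaling the shifts on replicates 1, 2 and 4 were 0.18, 0.23 and -0.41, where all detected genes shifted by 0.37, 0.49 and -0.75. Under these scalings the gap between channel genes and all detected genes on an array is unchanged from the main scaling. The cause of the changes was not tested. Of 240 recomputed gene levels, 61 moved by more than the SD over the arrays, 20 each under array-median and spike-in scaling, which shift the zero point of every level by a constant, 11 under normexp and 10 with the mean over probes. No paired analysis was possible because there is 1 group. Without the area of low signal on replicate 3 the 20 detected channel genes and their levels were unaltered. The signal over background of the dimmest array limits detection.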
